A study of Mus musculus with 2 samples.

Results

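Interferon-stimulated genes were described in EGFP-sorted cells of mouse breast tumours, from a list of 41 genes matched to the files by symbol. Of these, 40 have a row in the files, among 31054 gene rows, and the remaining one, Mx2, was not analysed here. The cells came from 2 tumours of inAd-Chaser-mTmG mice on the C57BL/6 strain. One was a Met-1 transplant and the other a PyMT tumour, with 1 library each. All mice carried Adiponectin-rtTA, TRE-Cre and the Rosa26 mT/mG reporter, so that doxycycline switched cells in which the adiponectin promoter had driven the transactivator, and their progeny, from tdTomato to EGFP. In both tumours the EGFP-positive, tdTomato-negative fraction was sorted and prepared with the standard 10x Genomics procedure. The sample label calls the transplant Met-1, whereas the design text of the series speaks of EO771 cells, and the label is followed here. How many mice were pooled into a library is not stated. With 1 library per tumour there is no replicate check and no test. All intervals below are exact 95% intervals of the counting error alone, and the spread from mouse to mouse is not in them. Intervals of levels and ratios take each counted transcript as independent, so the spread from cell to cell is not in them either.

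Interferons are secreted signals of antiviral defence. Type I interferons bind the receptor of Ifnar1 and Ifnar2, and the kinases Jak1 and Tyk2 then activate a transcription factor complex that includes Stat2 and Irf9 and binds interferon-stimulated response elements (ISRE). Interferon gamma, made mainly by T and NK cells, binds Ifngr1 and Ifngr2 and acts at gamma-activated sites (GAS), with Irf1 as an early target. The 40 genes were read in 3 groups. The 23 type I-like genes are effectors and regulators of the type I response, such as Isg15, a ubiquitin-like protein, the Ifit RNA-binding proteins and the Oas oligoadenylate synthetases. The 9 gamma-induced GTPases are the guanylate-binding proteins Gbp2, Gbp3, Gbp4, Gbp5 and Gbp7 and the immunity-related GTPases Igtp, Irgm1, Iigp1 and Ifi47. The other 8 genes, Ifitm1, Ifitm2, Ifitm3, Ifi27l2a, Bst2, Isg20, Irf1 and Irf8, are also made by some cell types without interferon. Many of the 40 genes answer to both kinds of interferon, so the names of the first 2 groups stand for typical, not exclusive, inducers.

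Promoters of 5 of the genes are shown as examples. Isg15, Ifit1 and Gbp2 hold ISRE matches only, Irf1 a GAS match only and Irf7 neither. Each is the 150 bases before the transcription start, read 5′ to 3′ on the gene's own strand, from RefSeq on build GRCm38.p6. Isg15 lies on the minus strand at chr4:156200819-156200968, Ifit1 on the plus strand at chr19:34640739-34640888, Irf7 on the minus strand at chr7:141266425-141266574, Gbp2 on the plus strand at chr3:142620513-142620662 and Irf1 on the plus strand at chr11:53769864-53770013. Capitals mark matches on either strand to the ISRE pattern, GAAA and a second GAAA with any 2 bases between them, or to the GAS pattern TTCNNNGAA, where N is any base.
Isg15: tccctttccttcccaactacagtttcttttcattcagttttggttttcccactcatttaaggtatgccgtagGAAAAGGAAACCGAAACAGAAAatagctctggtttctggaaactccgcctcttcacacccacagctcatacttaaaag
Ifit1: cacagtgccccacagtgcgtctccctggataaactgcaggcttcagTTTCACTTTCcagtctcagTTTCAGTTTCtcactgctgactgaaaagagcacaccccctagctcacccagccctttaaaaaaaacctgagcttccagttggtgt
Irf7: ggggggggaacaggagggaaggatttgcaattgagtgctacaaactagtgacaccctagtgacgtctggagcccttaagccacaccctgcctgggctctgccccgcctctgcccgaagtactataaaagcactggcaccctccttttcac
Gbp2: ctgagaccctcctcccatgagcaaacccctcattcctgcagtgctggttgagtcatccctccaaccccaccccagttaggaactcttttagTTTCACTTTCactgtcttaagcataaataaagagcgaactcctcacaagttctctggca
Irf1: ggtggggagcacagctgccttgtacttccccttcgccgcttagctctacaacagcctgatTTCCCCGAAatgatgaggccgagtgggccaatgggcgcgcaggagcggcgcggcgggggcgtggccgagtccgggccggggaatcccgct

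The Isg15 promoter held 3 overlapping ISRE matches, which began 78, 72 and 66 bases before the start. Ifit1 held 2 ISRE matches, 104 and 85 bases before the start, and Gbp2 held 1, at 59 bases. Irf1 held 1 GAS match, 90 bases before the start, and no ISRE match, and its second listed promoter held no match to either motif. Irf7 held no match in this window. Promoters of 300 bases, 250 before and 50 after the start, were available for 32 of the 40 genes. An ISRE match was present for 18 of these 32 genes (56.3%), against 3.99% of all 27025 genes with a promoter. A GAS match was present for 11 of 32 (34.4%), against 9.55% of all genes. By group, 9 of 18 type I-like genes, 6 of 7 GTPases and 3 of 7 other genes had an ISRE match, whereas 3 of 18, 3 of 7 and 5 of 7 had a GAS match. Both motifs were present in 6 genes, and in 2 promoters an ISRE and a GAS match overlapped. A match describes letters in the window and is not evidence of binding in these cells.

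After filters, 2112 of 2451 Met-1 barcodes and 589 of 619 PyMT barcodes were kept, with medians of 7684 and 3470 unique molecular identifiers (UMIs, counted transcripts) per cell. The libraries shared 0 barcodes. Cells were assigned to classes by how many of 8 markers of each type had a UMI. The Met-1 and PyMT libraries held 789 and 192 macrophage or monocyte-like cells, 35 and 186 neutrophil-like, 303 and 40 T-like, 252 and 26 B-like, 34 and 85 luminal-like, and 238 and 11 fibroblast-like cells. Met-1 also held 110 NK-like and 104 mural-like cells, against 3 and 0 in PyMT. Of 8 adipocyte markers, fibroblast-like cells had 7 UMIs in Met-1 and 0 in PyMT, and 2 Met-1 cells and no PyMT cell were classed as adipocyte-like. Most sorted cells thus carried markers of immune cells although the switch of the reporter depends on the adiponectin promoter. How they came to be in the sorted fraction was not tested. The class mix differed widely between the tumours, so levels are given by class. Levels are summed UMIs per 1000000 UMIs of the class (CPM), without correction for transcript length.

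Neutrophil-like cells carried the highest summed level of type I-like transcripts in both tumours. The summed level of the 23 genes in Met-1 neutrophil-like cells was 3225 CPM (interval 2863 to 3621). In PyMT neutrophil-like cells it was 2837 CPM (2662 to 3021). These cells were shallow, with medians of 2698 UMIs in Met-1 and 1608 in PyMT. Luminal-like cells followed, with 1389 CPM in Met-1 and 1613 in PyMT, then macrophage or monocyte-like cells, with 1301 in Met-1 and 1188 in PyMT. In Met-1, fibroblast-like cells had 1003 CPM, T-like cells 950, mural-like cells 829, NK-like cells 642 and B-like cells 324. The counting intervals of luminal-like (1301 to 1482) and macrophage-like cells (1273 to 1328) overlapped in Met-1, as did those of fibroblast-like (972 to 1034) and T-like cells (913 to 988). In PyMT, T-like cells had 869 CPM (746 to 1007), the 11 fibroblast-like cells 958 (793 to 1147) and B-like cells 210 (109 to 367). B-like cells were thus lowest in both tumours. The median cell was at 1617 CPM in neutrophil-like and 588 CPM in luminal-like cells of Met-1. In PyMT it was at 898 and 931 CPM, so the top place of neutrophil-like cells there held for the sum only. The tenth of PyMT neutrophil-like cells with the most type I-like UMIs held 61.0% of them.

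**Figure D1:**
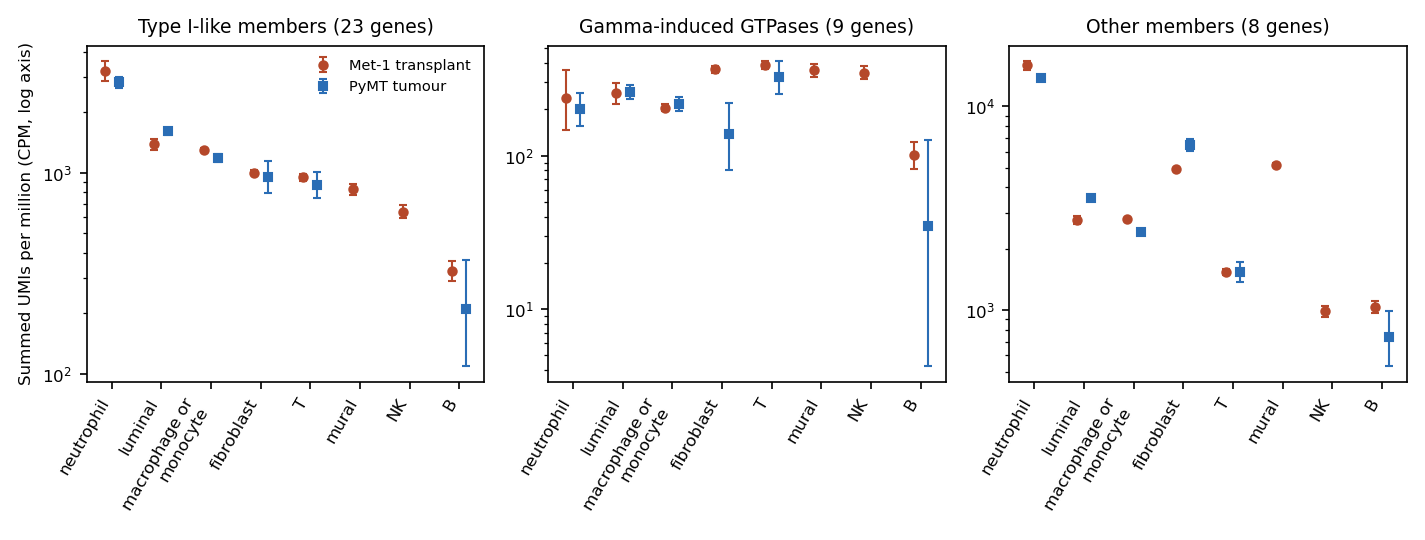
Summed UMIs per 1000000 (CPM, log axis) of the 23 type I-like genes, the 9 gamma-induced GTPases and the other 8 genes, by cell class, with the Met-1 transplant (circles) left of the PyMT tumour (squares) and bars for exact 95% counting intervals. Type I-like and other genes peak in neutrophil-like cells (3225 and 15868 CPM in Met-1), whereas the GTPases are highest in T-like cells (390 CPM in Met-1) and lowest in B-like cells (101 CPM).

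Isg15 contributed the largest share of type I-like UMIs in most classes. It stood at 1146 CPM in Met-1, against 751 CPM in PyMT neutrophil-like cells, at 299 and 280 CPM in T-like cells, and at 218 and 253 CPM in macrophage-like cells. In B-like cells it was at 13.8 CPM in Met-1 (13 UMIs) and had 0 UMIs in PyMT. Irf7, the transcription factor that amplifies type I interferon production, had its highest level in luminal-like cells, at 213 CPM in Met-1, against 305 CPM in PyMT. Luminal-like cells were also high for Ifi44, an antiproliferative interferon-induced protein, at 79.1 CPM in Met-1, against 44.9 CPM in PyMT, where neutrophil-like cells had 0 UMIs in either tumour.

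Different effectors led in different classes. Among neutrophil-like cells, Rsad2, the antiviral enzyme viperin, was at 169 CPM in Met-1 (15 UMIs), against 338 CPM in PyMT (116 UMIs). Ifit1 was at 169 CPM in Met-1 (15 UMIs), against 297 CPM in PyMT (102 UMIs). Oasl2, an oligoadenylate synthetase-like protein, was at 483 and 198 CPM in Met-1 and PyMT neutrophil-like cells. Ifit2 and the dynamin-like antiviral GTPase Mx1 were highest in macrophage-like cells among classes with at least 20 of their UMIs, at 52.2 and 35.3 CPM in Met-1. Ifit3 and Ifit3b are near-identical copies, and 51.2% of the 50-base windows of Ifit3 occur in Ifit3b. How reads from shared windows entered or dropped out of the counts was not tested. The same holds for Oas1a and Oas1g, with 56.9% of windows shared.

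**Figure D2:**
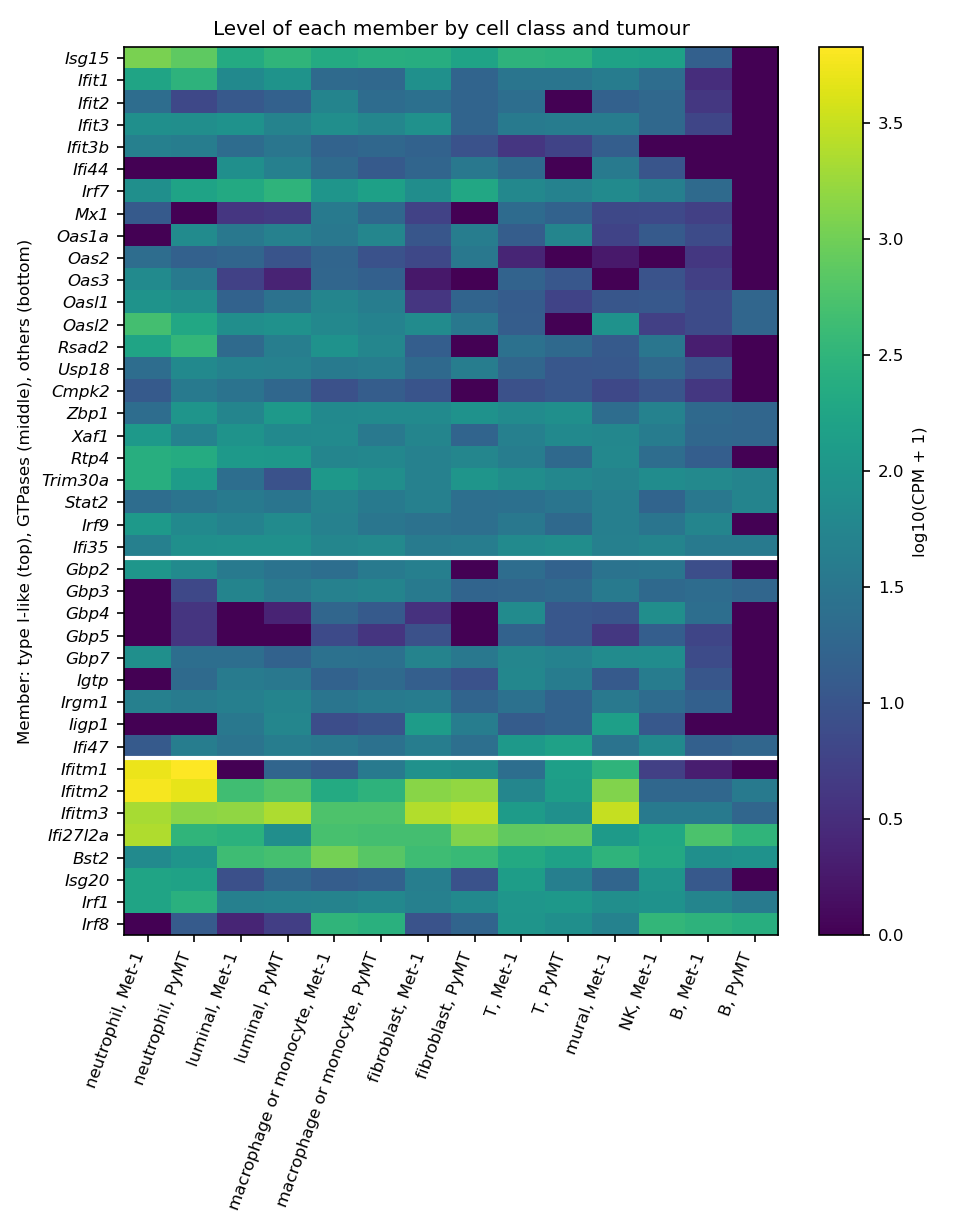
Level of each of the 40 genes as log10(CPM + 1), by cell class, with the Met-1 column left of the PyMT column of each class that was described. Ifitm1 and Ifitm2 are brightest in neutrophil-like columns, Iigp1 in fibroblast-like and mural-like columns, and Gbp4 in T-like and NK-like columns of Met-1; dark cells in the 26 B-like and 11 fibroblast-like PyMT cells rest on few UMIs.

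The gamma-induced GTPases were distributed differently from the type I-like genes. Their summed level in Met-1 was 390 CPM in T-like cells (366 to 414), 364 in fibroblast-like (346 to 383), 359 in mural-like (327 to 394) and 346 in NK-like cells (313 to 381), and these 4 intervals overlapped. It was 254 CPM in luminal-like cells, 236 in neutrophil-like, 205 in macrophage-like and 101 in B-like cells. In PyMT, T-like cells had 324 CPM, luminal-like cells 260, macrophage-like cells 218, neutrophil-like cells 201 and the 11 fibroblast-like cells 138. Neutrophil-like cells, highest for the summed type I-like genes in both tumours, were thus not highest for the GTPases in either. In PyMT the intervals of T-like (251 to 412) and luminal-like cells (235 to 288) overlapped.

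Single GTPases divided lymphoid from stromal cells. Gbp4 was at 68.7 CPM in Met-1 T-like and 75.8 CPM in NK-like cells, against 2.49 CPM in fibroblast-like cells. Ifi47 reached 115 CPM in Met-1, against 152 CPM in PyMT T-like cells. Iigp1, which attacks parasite vacuoles, was at 142 CPM in mural-like and 129 CPM in fibroblast-like cells of Met-1, against 12.1 CPM in T-like and 7.09 CPM in macrophage-like cells. Iigp1 had a UMI in 131 of the 238 fibroblast-like cells (55.0%) and 21 of the 303 T-like cells (6.93%) of Met-1, at median depths of 16467 and 7833 UMIs. B-like cells of Met-1 had a UMI of it in 0 of 252 cells at a median depth of 3494.5 UMIs, and the low share in T-like cells is not read as expression, since free RNA was not measured. In PyMT luminal-like cells Iigp1 was at 55.2 CPM, and in macrophage-like cells at 8.77 CPM.

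The ratio of type I-like to GTPase UMIs within a library needs no scaling between libraries. It was 13.7 in Met-1 neutrophil-like cells (8.77 to 22.4) and 14.1 in PyMT (11.1 to 18.3). Macrophage-like cells had 6.34 in Met-1 and 5.45 in PyMT, and luminal-like cells 5.47 and 6.19. T-like cells had 2.44 in Met-1 and 2.68 in PyMT. The lowest values were 2.31 in mural-like (2.06 to 2.59) and 1.85 in NK-like cells (1.64 to 2.10) of Met-1. Fibroblast-like cells had 2.75 in Met-1, against 6.94 in the 11 PyMT cells (4.16 to 12.3, on 17 GTPase UMIs). The order of the low classes depended on the lists. Without Iigp1 and Ifi47 the Met-1 ratio was 5.17 in fibroblast-like, 4.37 in mural-like, 3.72 in B-like, 3.62 in T-like and 2.37 in NK-like cells, and in PyMT T-like cells it was 5.53. Without Isg15 it was 1.86 in mural-like, 1.67 in T-like and 1.42 in NK-like cells of Met-1, and 8.81 in neutrophil-like cells. With the full lists the 4 classes compared between tumours fell in the same order of this ratio in PyMT and in Met-1, except that luminal-like and macrophage-like cells changed places.

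The other 8 genes were abundant and class-bound. The membrane proteins Ifitm1, Ifitm2 and Ifitm3, which block virus entry, dominated neutrophil-like cells. Ifitm1 was at 5169 CPM in Met-1, against 6698 CPM in PyMT neutrophil-like cells, and had a UMI in 94.3% and 88.7% of them. Ifitm2 was at 5855 and 4816 CPM. Ifitm3 was highest in mural-like cells of Met-1, at 3039 CPM, and in fibroblast-like cells was at 2413 CPM in Met-1, against 3020 CPM in PyMT. Bst2, the tetherin that holds virus particles on the cell surface, was highest in macrophage-like cells, at 1078 CPM in Met-1, against 688 CPM in PyMT. Irf8, a transcription factor of the myeloid and B lineages, was at 319 and 272 CPM in macrophage-like cells, 294 and 245 CPM in B-like cells and 345 CPM in Met-1 NK-like cells. The 26 Met-1 monocyte-like cells with little C1q RNA held 11314 CPM of these 8 genes, with Ifitm3 giving 46.5% of it, against 2446 CPM in the 763 C1q-rich macrophage-like cells.

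The comparison of the tumours asks whether the interferon genes of a cell class differ between a transplanted and a transgenic tumour. It was made in the 4 classes with at least 30 cells in each library. Genes with at least 50 UMIs in either library were compared, and a gene was called when its ratio of (CPM + 10) was at least 2-fold. A gene that passed this filter only through the library in which it is high had to differ, so counts are set beside the share of all genes that passed it. Differences in depth, class mix and library quality between the 2 libraries cannot be told apart from differences between the tumours.

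In macrophage or monocyte-like cells the genes were at similar levels. The summed type I-like level in Met-1 was 1.09 times that in PyMT (1.04 to 1.15), and that of the GTPases was 0.941 times. Of 38 genes compared, 0 were called higher in Met-1, where 5.37% of all 8197 genes were, and 1 was called lower, where 1.24% of all genes were. The gene called was Ifitm1, at 11.3 CPM in Met-1 (75 UMIs, 31 of them in 1 cell), against 35.7 CPM in PyMT (61 UMIs). The summed level of the 8 neutrophil markers in these cells was 135 CPM in Met-1, against 255 CPM in PyMT, with all 8 markers detected in both, and its part in the Ifitm1 difference was not tested. Ifitm1 was not called with classes taken from clusters or with 50 in place of 10 added to the CPM. Next lowest were Oas1a, at 32.9 CPM in Met-1, against 56.7 CPM in PyMT, and Irf7, at 98.6 and 149 CPM. Highest were Ifit2, at 52.2 CPM in Met-1, against 21.6 CPM in PyMT, Xaf1, a regulator of apoptosis, at 66.3 and 34.5 CPM, and Mx1, at 35.3 and 18.1 CPM. Ifit2 had a plain CPM ratio of 2.41 (1.71 to 3.48) but a log2 ratio of (CPM + 10) of 0.97, just below the call.

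These macrophage-like cells came mostly from different clusters in the 2 tumours. One cluster, led by Cacna1d, Lilrb4a and Hgf, held 572 Met-1 and 16 PyMT cells, and another, led by Ccr2, Cfp and Pf4, held 52 and 125. The type I-like ratio of Met-1 over PyMT was 1.66 (1.33 to 2.11) within the Cacna1d cluster and 1.06 within the Ccr2 cluster. In another cluster of 102 Met-1 and 43 PyMT cells, led by Aif1 and Fcrls, type I-like genes were at 1462 CPM in Met-1, against 564 CPM in PyMT, a ratio of 2.59 (2.05 to 3.32), with median depths of 3951 and 2706 UMIs. The GTPases were at 218 and 195 CPM there.

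In neutrophil-like cells 2 of 12 genes compared were called higher in Met-1, where 5.6% of all 983 genes were, and 0 were called lower, where 19.5% of all genes were. Ifi27l2a, a small interferon-induced mitochondrial protein, was at 2326 CPM in Met-1 (207 UMIs, at most 24 in 1 cell), against 317 CPM in PyMT (109 UMIs). The ratio was 7.33 (5.79 to 9.34), and the gene had a UMI in 65.7% of Met-1 and 20.4% of PyMT cells, at median depths of 2698 and 1608 UMIs. Oasl2 had a ratio of 2.44 (1.63 to 3.63). Isg15 was at 1146 CPM in Met-1, against 751 CPM in PyMT. Lowest were Irf7, at 78.7 CPM in Met-1 (7 UMIs), against 163 CPM in PyMT (56 UMIs), Rsad2 and Ifit1, each with a log2 ratio above -1. The summed type I-like ratio was 1.14, and its interval (0.993 to 1.30) included 1.

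In T-like cells 4 of 29 genes compared were called higher in Met-1, where 10.7% of all 5218 genes were, and 2 were called lower, where 2.97% of all genes were. All 4 passed the filter through Met-1 alone, and with 50 UMIs required in both libraries 0 of 2 genes were called. Gbp4 was at 68.7 CPM in Met-1 (181 UMIs), against 9.82 CPM in PyMT (2 UMIs), a ratio of 6.99 with a wide interval (1.91 to 58.2). Isg20, an exonuclease, was at 134 and 44.2 CPM. Ifit2 and Ifi44 had 62 and 50 UMIs in Met-1 and 0 in PyMT, where the 40 cells held 203601 UMIs in all. Taking 3 counts as the most that a class total of 0 allows, they were at least 1.60-fold and 1.29-fold higher in Met-1. This limit covers the counting error alone. In Met-1, 41 of the Ifit2 and 34 of the Ifi44 UMIs were in 12 of 301 cells each, cells rich in the other type I-like genes. Ifitm1 was at 23.2 CPM in Met-1, against 142 CPM in PyMT, but 31 of its 61 Met-1 UMIs and 25 of its 29 PyMT UMIs were in 1 cell each. Ifitm2 was at 56.9 CPM in Met-1, against 133 CPM in PyMT. Neutrophil markers were at 13.7 CPM in Met-1 (6 of 8 detected), against 88.4 CPM in PyMT T-like cells (5 of 8 detected), and their part in both differences was not tested. Neither gene was called once the top cell of each gene was left out, and with 50 in place of 10 added to the CPM none of the 4 higher genes was called. Xaf1, the third lowest, was at 45.2 CPM in Met-1, against 63.9 CPM in PyMT. The summed type I-like ratio was 1.09 (0.938 to 1.28), and 64 of the 177 type I-like UMIs of PyMT T-like cells were in 1 cell. Leaving out the highest cell on each side gave a ratio of 1.57 (1.30 to 1.91).

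In luminal-like cells 1 of 23 genes compared was called higher in Met-1, where 5.24% of all 4023 genes were, and 0 were called lower, where 7.88% of all genes were. The gene was again Ifi27l2a, at 274 CPM in Met-1, against 77.3 CPM in PyMT, with 133 of its 180 Met-1 UMIs in 1 cell; without the top cell it was not called. The summed type I-like ratio was 0.862 (0.797 to 0.930), and Zbp1, a sensor of Z-form nucleic acid, was lowest, at 54.8 CPM in Met-1, against 113 CPM in PyMT, followed by Rsad2 and Iigp1. Ifi44 and Ifit3 were highest after Ifi27l2a, at 79.1 and 86.7 CPM in Met-1 and 44.9 and 51.1 CPM in PyMT. The neutrophil marker sum in these cells was 947 CPM in Met-1 (3 of 8 detected), against 169 CPM in PyMT (8 of 8), and its part was not tested.

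The median log2 ratio of the genes compared was 0.06 in macrophage-like, 0.12 in neutrophil-like, 0.27 in T-like and -0.21 in luminal-like cells. The medians of all genes compared in these classes were 0.15, -0.28, 0.11 and -0.08. The median of the interferon genes was thus above that of all genes in neutrophil-like and T-like cells. It was below in macrophage-like and luminal-like cells. For the type I-like genes alone this order turned in macrophage-like cells, with a median of 0.24, and in neutrophil-like cells, with -0.32. It held in T-like (0.26) and luminal-like cells (-0.27). In macrophage-like cells the GTPases had a median of -0.09 and the other 8 genes -0.05. In neutrophil-like cells 6 of the other 8 genes were compared, with a median of 0.19, and no GTPase was.

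**Figure D3:**
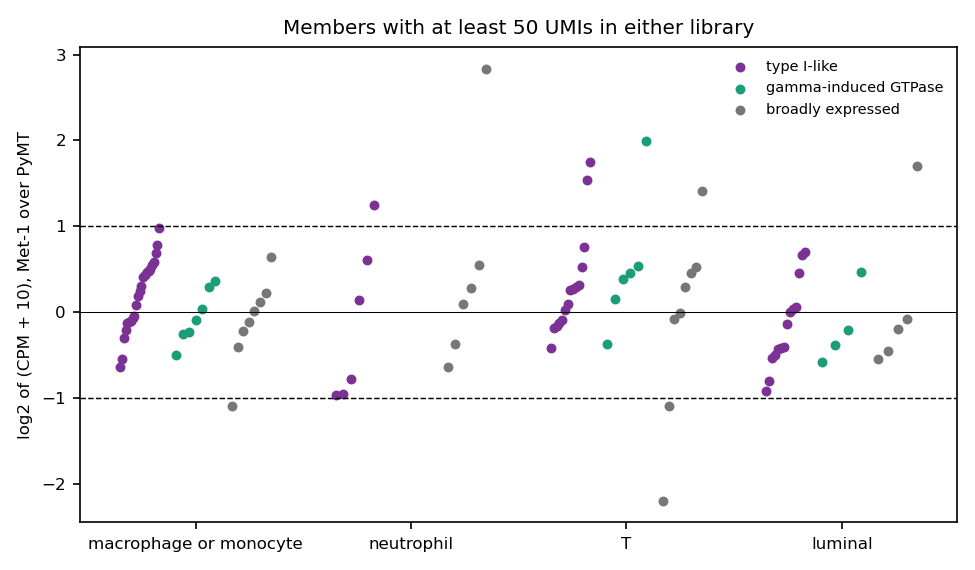
Log2 ratio of (CPM + 10), Met-1 over PyMT, of each interferon-stimulated gene with at least 50 UMIs in either library, by cell class and gene group, ordered within each group; dashed lines mark 2-fold either way. Most points lie between the lines, with Ifi27l2a of neutrophil-like cells (2.84) highest and Ifitm1 of T-like cells (-2.20) lowest.

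Other genes of the pathway were read from 5 further lists. The shares of all genes called, given above for each class, apply to these counts too. In macrophage-like cells (5.37% of all genes higher, 1.24% lower), 13 receptor and signalling genes were compared, of which only Ifnar1, a type I receptor chain, was called higher in Met-1, at 169 CPM against 77.8 CPM in PyMT. None of 9 nucleic acid sensors was called in either direction. Among 21 other type I targets 2 were called higher, Trim25, a ubiquitin ligase, at 117 CPM in Met-1, against 48.0 CPM in PyMT, and Ddx60, with 112 UMIs in Met-1 and 5 in PyMT. Among 12 other gamma targets, Cxcl9, a T cell-attracting chemokine, was called higher, at 83.2 CPM in Met-1, against 21.6 CPM in PyMT (ratio 3.85, 2.76 to 5.52). Few Met-1 cells carried it. Among those with at least 1000 UMIs, 9 of 47 cells rich in type I-like transcripts and 45 of 723 others had a UMI of Cxcl9. Ly6e and Ms4a4c were lowest, at 548 and 96.3 CPM in Met-1 and 751 and 127 CPM in PyMT, and were not called. In T-like cells (10.7% of all genes higher, 2.97% lower), 6 of 17 other type I targets, 2 of 10 other gamma targets (Gbp8 and the MHC class I regulator Nlrc5) and 1 of 3 sensors (Ddx58) were called higher in Met-1. All 10 sensors together had 21 UMIs in PyMT T-like cells, so Ddx58 passed the filter through Met-1 alone. Genes with few PyMT UMIs pass only through their Met-1 counts, so no reading is drawn from these T-like counts. The chemokine Cxcl10 was called lower, at 96.8 CPM in Met-1, against 236 CPM in PyMT, as was Ifng itself, at 44.8 and 103 CPM. Both calls rest on few cells. In PyMT, Ifng had 21 UMIs in 9 of 40 T-like cells, 7 of them in 1 cell. In Met-1, 12 T-like cells rich in type I-like transcripts held 135 Cxcl10 UMIs, against 120 in 289 others. In neutrophil-like cells (5.6% of all genes higher, 19.5% lower) 1 of 6 pathway genes compared, Jak1, was called higher, at 326 CPM in Met-1, against 151 CPM in PyMT. In luminal-like cells (5.24% of all genes higher, 7.88% lower) 17 were compared, and Socs3, a feedback inhibitor, was called higher, at 142 and 60.8 CPM, and the receptor chain Ifnar2 lower, at 24.3 and 59.4 CPM.

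Type I-like transcripts were concentrated in few cells. In macrophage-like cells, the tenth of cells with the most type I-like UMIs held 54.9% of them in Met-1 and 51.8% in PyMT. To compare cells at equal depth, each was thinned to 1000 UMIs, and a cell with at least 5 type I-like UMIs over at least 3 genes was called type I-high. Of Met-1 and PyMT neutrophil-like cells, 7 of 31 (22.6%, 9.59 to 41.1) and 27 of 173 (15.6%, 10.5 to 21.9) were type I-high. The shares were 47 of 770 (6.10%, 4.52 to 8.03) and 10 of 191 (5.24%, 2.54 to 9.42) of macrophage-like cells, 4 of 29 (13.8%) and 8 of 82 (9.76%) of luminal-like cells, and 12 of 301 (3.99%) and 2 of 40 (5%) of T-like cells. For each of these 4 classes the intervals of the 2 tumours overlapped. Thinning to 2000 UMIs, with a limit of 10, turned the order of the tumours in neutrophil-like, macrophage-like and luminal-like cells. It gave 6 of 26 (23.1%) Met-1 and 12 of 48 (25%) PyMT neutrophil-like cells, after leaving out 9 and 138 cells below 2000 UMIs. For macrophage-like cells it gave 37 of 727 (5.09%) and 11 of 179 (6.15%), and for luminal-like cells 1 of 22 (4.55%) and 5 of 80 (6.25%). By a share of 0.5% of unthinned UMIs the order turned in macrophage-like (5.96% in Met-1, 7.29% in PyMT) and T-like cells (3.30% and 2.50%). A limit of 10 UMIs of 1000 left 0 luminal-like cells in either tumour. In Met-1, 13 of 232 fibroblast-like cells (5.60%, and 2.94% by a share of 0.5% of unthinned UMIs), 4 of 103 mural-like cells and 1 of 110 NK-like cells were type I-high. Among B-like cells the numbers were 0 of 248 in Met-1 and 0 of 26 in PyMT. Taking 3 cells as the limit for a count of 0, this allows shares of up to 1.21% and 11.5%, and the exact 95% intervals end at 1.48% and 13.2%.

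**Figure D4:**
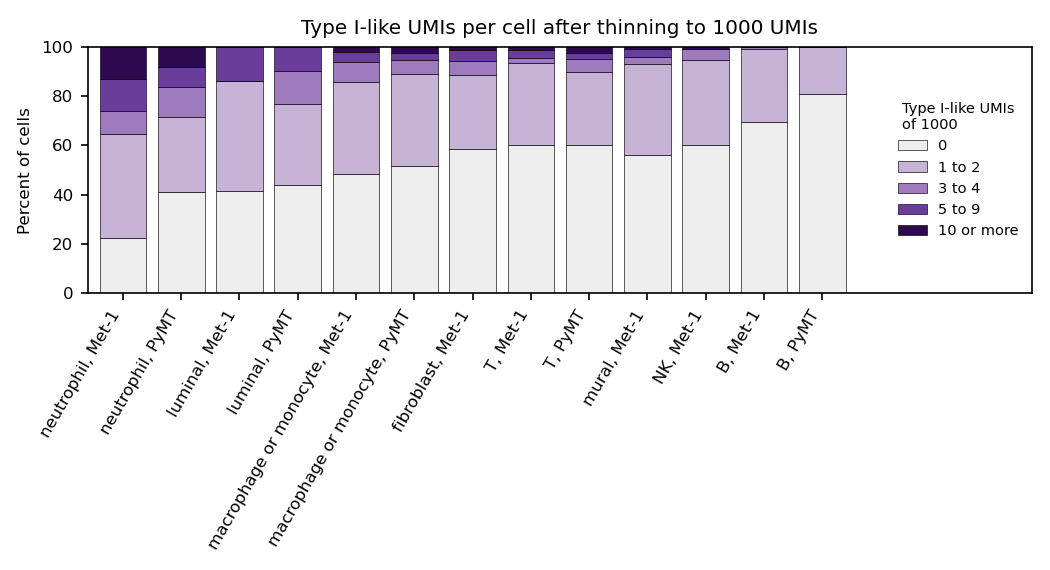
Percent of cells by number of type I-like UMIs after thinning each cell to 1000 UMIs, with Met-1 left of PyMT for each class with at least 20 cells. Cells with 0 type I-like UMIs make up 22.6% of Met-1 and 41.04% of PyMT neutrophil-like cells, and 69.4% and 80.8% of B-like cells.

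The limit of 5 UMIs cut a continuous range. Among Met-1 macrophage-like cells 19 had 4 thinned UMIs and 13 had 5, and the highest had 38. High and other Met-1 macrophage-like cells had median depths of 7326 and 7664 UMIs and median mitochondrial shares of 1.25% and 1.64%. The 47 high cells held 38.2% of the type I-like UMIs of the class, and the 27 high PyMT neutrophil-like cells held 66.7%. The values that follow describe cells picked by the type I-like genes, with no test.

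Within high cells nearly the whole type I-like group was higher. For each of the 23 genes the high cells were picked again without that gene. In Met-1 macrophage-like cells 22 of 23 genes were at least 2-fold higher in high cells, as were 6.54% of all 9867 genes with at least 20 UMIs, and the median fold was 12.2. The largest folds were those of Ifit3b (49.1), Ifit1 (45.8), Ifit3 (33.2), Cmpk2, a mitochondrial nucleotide kinase (29.7), Rsad2 (25.6) and Mx1 (25.1). The smallest were those of Oas1a (2.62) and Irf9 (1.39, 0.847 to 2.16). In PyMT macrophage-like cells 21 of 21 genes with at least 20 UMIs were at least 2-fold higher (9.59% of all genes), in T-like cells of Met-1 21 of 21 (10.8%), in fibroblast-like cells of Met-1 20 of 20 (5.83%) and in PyMT neutrophil-like cells 13 of 14 (8.59%). Irf9 was the exception among neutrophil-like cells as well, at 1.36-fold.

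The GTPases, which did not enter the choice of cells, were also higher in the same cells. In Met-1 macrophage-like cells their sum was 1009 CPM in high and 161 CPM in other cells, a fold of 6.28 (5.54 to 7.10). All 9 were at least 2-fold higher, as were 6.54% of all genes, between Gbp3 (2.32) and Gbp5 (32.5, on 27 and 15 UMIs), and Ifi47 was 11.5-fold higher (8.71 to 15.2). The fold of the sum was 4.73 in PyMT macrophage-like cells, 5.26 in T-like and 5.82 in fibroblast-like cells of Met-1, and 9.65 in PyMT neutrophil-like cells (43 and 25 UMIs). In high fibroblast-like cells Iigp1 stood at 833 CPM, against 83.6 CPM in other cells. Of the other 8 genes, Isg20 had the largest fold in Met-1 macrophage-like cells, 13.1, followed by Ifitm3 with 4.06, whereas Ifitm1 had 1.03 (0.273 to 2.76) and Irf8 1.31. In PyMT neutrophil-like cells Ifitm3 was 3.79-fold and Ifi27l2a 5.40-fold higher in high cells, whereas Ifitm1 was at 6941 CPM in high and 6723 CPM in other cells and Ifitm2 at 3699 and 5026 CPM.

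Receptors did not share this pattern. In Met-1 macrophage-like cells the fold was 0.582 for Ifnar1 (0.403 to 0.814), 0.813 for Ifnar2 and between 0.373 and 0.656 for Ifngr1. The feedback inhibitor Socs1 was 5.85-fold higher in high cells. Of 9 nucleic acid sensors with at least 20 UMIs 5 were at least 2-fold higher, against 6.54% of all genes. The RNA sensors Ddx58 (RIG-I, 10.4-fold) and Ifih1 (MDA5, 7.10-fold) led, while the adaptor Mavs was at 0.714 and the endosomal receptor Tlr7 at 1.01. Of 22 other type I targets 19, and of 14 other gamma targets 11, were at least 2-fold higher, beside 6.54% of all genes. In PyMT macrophage-like cells 20 of 21 other type I targets but 4 of 10 other gamma targets were at least 2-fold higher, and 1 of the gamma targets was at least 2-fold lower, beside 9.59% and 27.1% of all genes. Cxcl10 was at 2634 CPM in high and 140 CPM in other cells, and 24 of 47 high and 111 of 723 other cells had a UMI of it. In PyMT macrophage-like cells Cxcl10 was at 936 and 270 CPM.

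**Figure D5:**
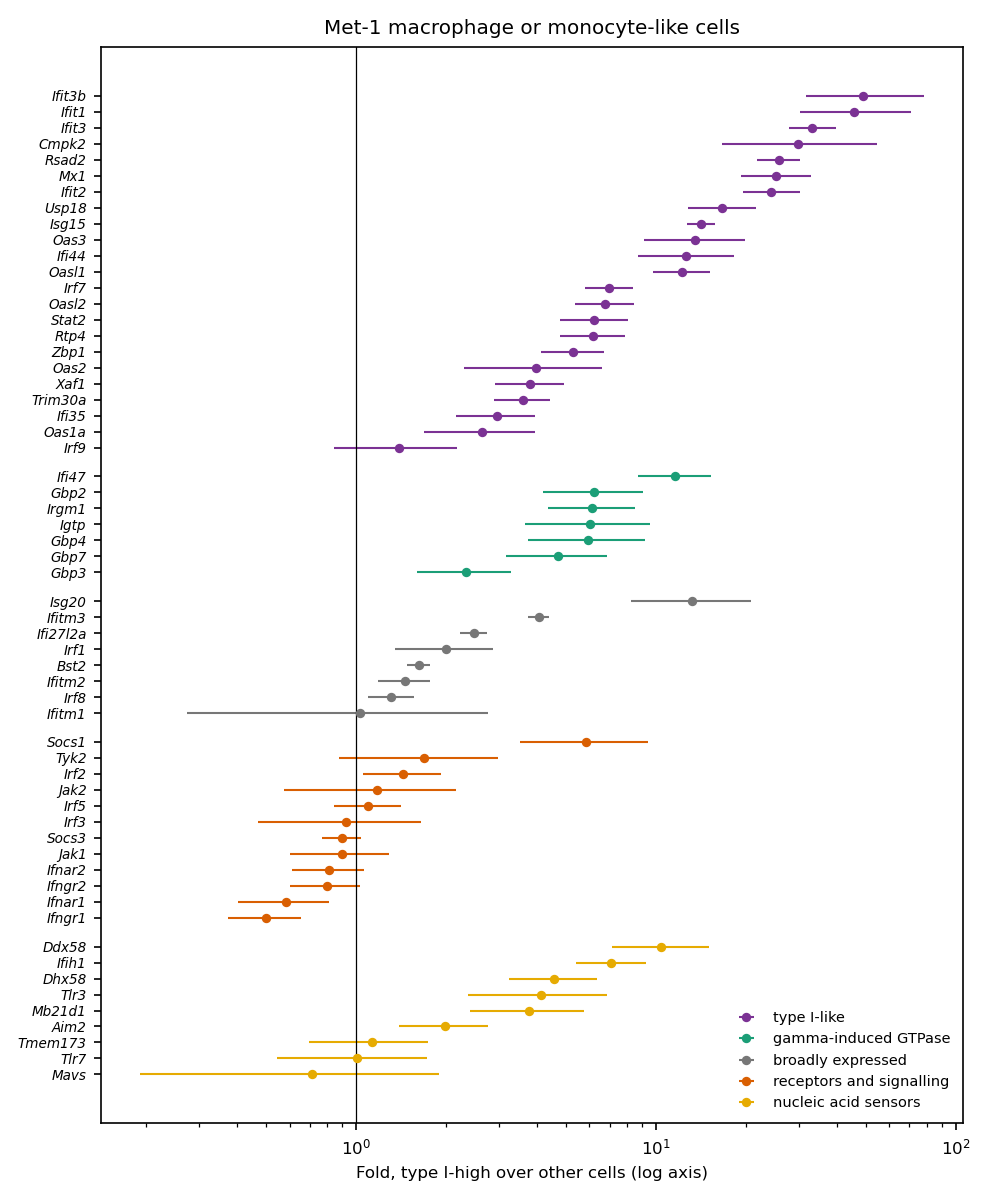
Fold of each gene in type I-high over other Met-1 macrophage or monocyte-like cells, on a log axis with exact 95% counting intervals, for the genes reported that had at least 50 UMIs; each type I-like gene is shown with cells picked without it. Type I-like folds run between 1.39 (Irf9) and 49.1 (Ifit3b), GTPases lie above 2, and receptor chains lie at or below 1.

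Interferon transcripts themselves were rare. Ifnb1, which encodes interferon beta, had 14 UMIs in 10 of 2112 Met-1 cells, all of them macrophage-like, and 4 UMIs in 4 of 589 PyMT cells, of which 3 were macrophage-like. Among Met-1 macrophage-like cells with at least 1000 UMIs, 4 of 47 high cells had 7 of these UMIs and 4 of 723 other cells had 4 (fold 31.6, 8.02 to 147). The interferon alpha, epsilon, kappa and lambda genes of the list had 0 UMIs in both libraries. Ifng was at 61.4 CPM in Met-1 NK-like cells (72 UMIs in 34 of 110 cells) and at 44.8 CPM in T-like cells, where 1 cell held 22 of 118 UMIs, against 0.452 CPM in macrophage-like cells.

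In all thinned cells, type I-high ones included, both groups of genes were read together by whether a cell kept any UMI of each after thinning. In Met-1 fibroblast-like cells 36.5% of cells with a type I-like UMI also had a GTPase UMI, against 16.2% of cells without one. In mural-like cells the shares were 40% and 17.2%, and in macrophage-like cells 19.7% and 12.0%. In PyMT macrophage-like cells they were 18.5% and 14.1%. In lymphoid cells of Met-1 the shares lay closer or in the other order, with 28.3% and 25.4% in T-like and 18.2% and 28.8% in NK-like cells, where NK-like counts were 8 and 19 cells. In B-like cells of Met-1 they were 10.5% and 8.72%.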

How the data were processed

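Single-cell RNA was measured in 1 library per tumour. The deposited matrices hold raw UMI counts, for which the submitters' processing notes name Cell Ranger 3.1.0 and mm10; the annotation release and cell-calling settings are not given in the sources used here. A barcode was kept when it had 500 UMIs or more, 200 genes or more, and no more than 10% of its UMIs on 13 mitochondrial genes. Scrublet, run through scanpy 1.11.5, marked 23 Met-1 and 1 PyMT barcodes as doublets, which were left out. The kept cells held 19768692 UMIs in Met-1 and 4293854 in PyMT.

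A cell took the type with the most of its 8 markers detected, with at least 3 markers and at least 2 more than any of the other 11 types. UMIs were summed per class. Levels have exact Poisson intervals, ratios exact conditional binomial intervals and shares Clopper-Pearson intervals. Clusters came from 2000 variable genes, 30 principal components and Leiden resolution 0.5, made without the interferon genes. Steps ran in Python 3.11.15 with numpy 2.4.6, scipy 1.17.1 and pandas 2.3.3. The calls were tried on simulated counts without spread from cell to cell, with 4-fold changes placed only in genes with high expected counts in PyMT. These changes were found, which does not show how calls near 2-fold or on few UMIs fare. In neutrophil-like, T-like and luminal-like cells counting noise alone also gave calls among unchanged genes.

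The genes and lists were chosen with earlier results of these data known. Genes named with a level had at least 20 UMIs in a class, but not in every class for which a level is given. For each class compared, the 3 highest and 3 lowest interferon genes and the 2 highest and 2 lowest pathway genes by ratio were named; further genes were chosen after their values were seen. Alternatives varied the cell classes, filters, gene lists, pseudocount and thinning. One gene of the pathway lists is not reported here.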

Additional observations from a re-analysis of the deposited data

Results flagged for a closer look

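Barcodes outside the cell classes also carried type I-like transcripts. They lay above the limit that a count of 0 allows, which any set with more than 3 such UMIs passes, so the values are a description, and free RNA was not measured. In barcodes above the mitochondrial limit the 23 genes were at 616 CPM in Met-1 (295 barcodes, limit 5.02 CPM) and 566 CPM in PyMT (14 barcodes, limit 77.1 CPM). In barcodes with markers of 2 types they were at 820 CPM in Met-1 (170 barcodes, limit 1.47 CPM) and 900.2 CPM in PyMT (25 barcodes, limit 8.44 CPM). In barcodes with too few markers for a class they were at 1381 CPM in Met-1 (66 barcodes, limit 12.3 CPM) and 520 CPM in PyMT (21 barcodes, limit 91.7 CPM).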

How the results depend on the processing

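No paired analysis was possible because each tumour has 1 library. Summed ratios crossed 1 in 3 cases: for type I-like genes of neutrophil-like cells (0.997 without Isg15, 0.989 with a margin of 4 markers), for the GTPases of macrophage-like cells (1.04 in the Cacna1d and 1.12 in the Aif1 cluster) and for the GTPases of luminal-like cells (1.17 without Iigp1 and Ifi47, 1.10 as a mean over cells). The type I-like ratio of Met-1 over PyMT in macrophage-like cells was 1.16 without Isg15, 1.23 with Ifi27l2a and Bst2 added and 1.24 as a mean over cells. Within clusters, an alternative chosen after seeing the data, it was 1.66 in the Cacna1d cluster and 2.59 in the Aif1 cluster, where the GTPase ratio was 1.12; the GTPase ratio in the Ccr2 cluster was 0.694. In neutrophil-like cells the type I-like ratio was 0.989 with a margin of 4 markers and 1.73 with Ifi27l2a and Bst2. In T-like cells it was 1.38 with that margin and 1.57 without the top cell of each library, and the GTPase ratio was 1.67 without Iigp1 and Ifi47. In luminal-like cells the type I-like ratio was 0.761 with that margin, 0.958 with Ifi27l2a and Bst2, 0.785 without the top cells and 0.953 as a mean over cells.

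Counts of genes called moved as follows. In macrophage-like cells, 1 gene was higher with 1 added to the CPM and 1 without the top cell of each gene, and 0 were lower with classes from clusters or 50 added. In neutrophil-like cells, 1 was higher with the wider margin or with 50 UMIs required in both libraries, and 2, 1, 1, 3, 2 and 3 were lower with classes from clusters, the wider margin, 1 added, 20 UMIs in either library, centring on the median and without the top cells. In T-like cells, 0 were higher with 50 added, 0 with 50 UMIs in both libraries and 8 without the top cells, and 0 were lower with classes from clusters, with 50 UMIs in both or without the top cells and 1 with the wider margin, 50 added or centring. In luminal-like cells, 0 were higher without the top cells, and 2, 1, 2, 1, 1 and 3 were lower under the same 6 settings as for neutrophil-like cells. The cause was not tested. Of the alternative shares of type I-high cells, 41 stayed within the counting interval and 19 moved; of the type I-like to GTPase ratios, 20 stayed and 19 moved, and the order of the low classes changed. Depth limits low genes most in the classes with few UMIs, such as Met-1 neutrophil-like cells, where 1 UMI is worth 11.2 CPM, and PyMT T-like cells, where it is worth 4.91 CPM.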

Other observations

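Isg20, which did not enter the choice of type I-high cells, was higher in them in each of 3 groups of myeloid cells. It was at 101 CPM in high and 7.65 CPM in other Met-1 macrophage-like cells, at 182 and 6.74 CPM in PyMT macrophage-like cells (14 and 11 UMIs), and at 557 and 67.3 CPM in PyMT neutrophil-like cells (28 and 19 UMIs). Ifitm3 was higher in high cells of the same 3 groups, by 4.06, 7.37 and 3.79 times, whereas Irf8 was at 1.31 times in both macrophage-like groups. The rise was not particular to myeloid cells. In Met-1 T-like cells Isg20 was 9.18-fold (102 and 251 UMIs) and Ifitm3 7.93-fold higher in high cells. In Met-1 fibroblast-like cells the folds were 1.71 (0.973 to 2.84) and 1.81.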
